A study of Homo sapiens with 2 samples.

Results

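Long intergenic non-coding RNAs (lincRNAs) are long transcripts that lie between protein-coding genes and carry no long reading frame. They were measured in BT549, a mesenchymal line from a breast cancer without hormone receptors. The set was chosen by level: every autosomal gene that GENCODE release 29 types as lincRNA was selected on a deposited FPKM (reads per gene scaled for exon length) of at least 2 in either library. Small nucleolar RNA host genes named SNHG, together with GAS5 and ZFAS1, were left out, which removed 4 genes. The set holds 153 of 7446 autosomal lincRNA genes and of 58735 genes in all, and 1984 autosomal lincRNA genes had at least 1 read in either library. Wnt3a, a secreted Wnt ligand, was applied to both cultures for 2 h. The scrambled culture carried a control short hairpin RNA and the shSIK2 culture a hairpin that targets SIK2, which belongs to the salt-inducible kinases. There was 1 library in each group, so no difference has a replicate check and none was tested. Intervals beside a fold are 95% counting intervals of the recovered reads and cover counting error only. Folds and intervals are not scaled to library totals, so an interval that includes or excludes no difference does so for unscaled reads.

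Nuclear lincRNAs such as MALAT1 and NEAT1 act at speckles and paraspeckles, bodies in which RNA-processing proteins gather. Others are cytoplasmic decoys, are precursors from which microRNAs are cut, or come from imprinted loci, in which 1 parental copy is expressed. Many start beside the promoter of a coding gene and are transcribed away from it, so their level is often read together with that of the neighbour.

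A few sequences show what kinds of RNA the set holds. The microRNAs below lie inside member genes on the same strand. They are mature forms from RefSeq (GRCh38.p14), with the seed, bases 2 to 8, in capitals. The first 5 share the let-7 seed and come from 3 members, MIRLET7BHG, AC048341.1 and AL158152.2. The next pair share the miR-30 seed and lie in LINC00472, and the last lies in an exon of MIR22HG.
hsa-let-7a-5p: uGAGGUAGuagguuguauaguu
hsa-let-7b-5p: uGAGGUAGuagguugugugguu
hsa-let-7d-5p: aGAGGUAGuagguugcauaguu
hsa-let-7f-5p: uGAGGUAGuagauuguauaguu
hsa-let-7i-5p: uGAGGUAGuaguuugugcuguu
hsa-miR-30a-5p: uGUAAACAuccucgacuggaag
hsa-miR-30c-5p: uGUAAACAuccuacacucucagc
hsa-miR-22-3p: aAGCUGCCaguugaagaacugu

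NORAD binds Pumilio proteins, repressors of messenger RNAs, through repeats of an element with the letters TGTANATA. The stretches below, from GENCODE release 29 transcripts on GRCh38, show paired elements in capitals in NORAD (chr20:36049481-36049540, minus strand) and at the aligned place of HCG11 (chr6:26523126-26523181, plus strand), another member.
NORAD: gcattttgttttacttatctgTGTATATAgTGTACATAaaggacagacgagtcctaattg
HCG11: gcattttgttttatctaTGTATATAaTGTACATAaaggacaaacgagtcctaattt

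MEG3 was the member with the highest ratio among those with at least 100 reads, and LINC00662 had the most reads among members at least 2-fold lower. Their RefSeq promoter windows (GRCh38.p14), 250 bases before to 50 after the annotated start, are chr14:100825858-100826157 on the plus strand and chr19:27793891-27794190 on the minus strand. Capitals mark matches to the motifs searched.
MEG3: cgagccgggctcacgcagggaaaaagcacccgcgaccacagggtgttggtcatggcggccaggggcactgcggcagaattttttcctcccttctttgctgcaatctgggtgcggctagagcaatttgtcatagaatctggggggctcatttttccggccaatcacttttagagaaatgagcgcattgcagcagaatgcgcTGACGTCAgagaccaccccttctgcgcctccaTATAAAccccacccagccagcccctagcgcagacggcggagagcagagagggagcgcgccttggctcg
LINC00662: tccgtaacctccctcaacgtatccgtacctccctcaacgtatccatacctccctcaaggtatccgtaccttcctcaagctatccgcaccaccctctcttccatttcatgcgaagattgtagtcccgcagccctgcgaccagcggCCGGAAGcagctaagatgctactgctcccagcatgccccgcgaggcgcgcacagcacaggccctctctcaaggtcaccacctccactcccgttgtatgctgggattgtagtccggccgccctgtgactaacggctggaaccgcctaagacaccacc

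SIK2, the target of the hairpin, stood at 7.80 FPKM with the control hairpin and 3.56 with the SIK2 hairpin, 2.19-fold lower (1.99 to 2.42). The libraries held 18019225 (scrambled) and 16347399 (shSIK2) reads assigned to genes. VIM, CD44, SPARC, ZEB1 and FN1, which mark mesenchymal breast cancer lines, were present in both, at 9.82 FPKM or more. ESR1, PGR, EPCAM and CDH1 were at or near 0, and ERBB2 stood at 4.96 and 6.75 FPKM. Markers of leukocytes, endothelial cells and adipocytes reached at most 0.56 FPKM, and 8 of the 12 had 0 reads in both libraries.

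Of the 153 lincRNAs, 39 had an shSIK2 level at least 2-fold above the scrambled level and 16 at least 2-fold below it. These counts are on the scale of log2 (FPKM + 0.1), which understates the ratio of low genes. The remaining 98 lay between. The shares among all 10306 autosomal genes at the same minimum level were 8.41% higher and 7.29% lower. For the 9207 protein-coding genes they were 6.95% and 6.47%. The median log2 ratio of shSIK2 over scrambled was 0.20 for the members, with quartiles at -0.46 and 1.01. It was -0.15 for all autosomal genes and -0.16 for protein-coding genes. For the 201 genes of the antisense type, with a median of 3.18 FPKM in the higher library (members 4.0), the shares were 25.9% higher and 9.45% lower, with a median of 0.31. Scaling to equal library totals adds up to 0.14 to a log2 ratio, less for the lowest genes, and moves the median of all autosomal genes to -0.01.

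The levels in these 2 libraries chose the members, so counts and medians describe the set and support nothing. A lincRNA that reached 2 FPKM in only 1 library had to be higher there. Both libraries passed the minimum for 90 members. In these, 4 were past 2-fold on the higher and 6 on the lower side, and the median was -0.066. No share over all genes that passed in both libraries is given here, so these counts stand without a comparison. Another 46 members passed in the shSIK2 library only, 35 of them at least 2-fold higher, and 17 passed in the scrambled library only, 10 of them at least 2-fold lower. The edge of the rule was thinly separated: 5 lincRNAs lay just outside, between 1.92 and 1.98 FPKM in the higher library, and 5 just inside, between 2.08 and 2.1.

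Depth was low. The median member had 163 reads in both libraries together and an exon length of 1312 bases. The median protein-coding gene had 1565 reads and 5127 bases. In 54 members the counting interval included no difference. The interval lay wholly past 2-fold for 23 members on the higher side and 9 on the lower side, while this held for 4.85% and 4.1% of all autosomal genes. Members with at least 100 reads numbered 92, of which 13 were past 2-fold on the higher and 10 on the lower side, with a median of -0.043. For these, too, no share over all genes at that depth is given. Among the 93 members under 5 FPKM in the higher library, 27 were at least 2-fold higher and 7 lower, and the shares among protein-coding genes of that band were 12.2% and 5.82%. The coding genes of that band had 569 reads at the median and the members 98.

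**Figure D1:**
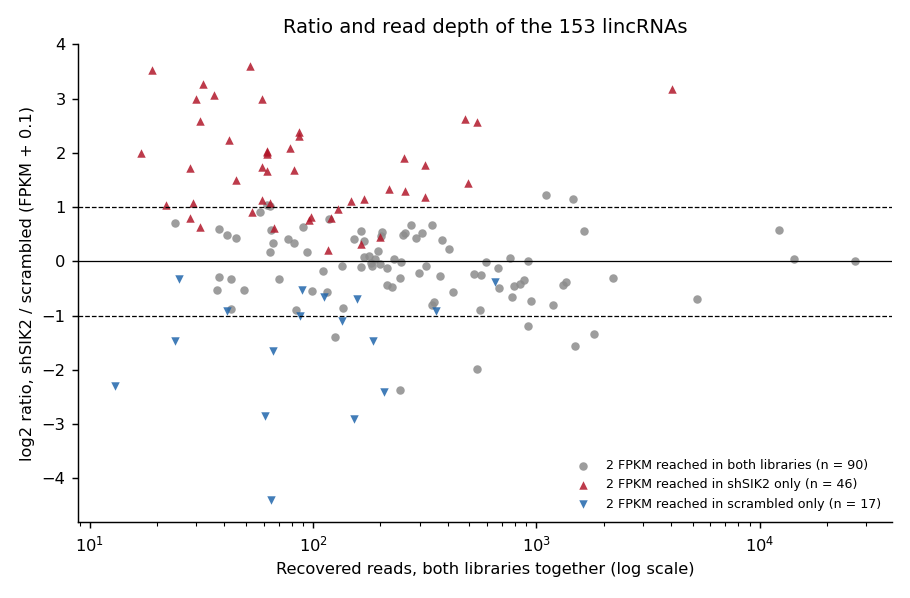
Log2 ratio of shSIK2 over scrambled (FPKM + 0.1, y axis) against recovered reads in both libraries together (log scale, x axis) for the 153 lincRNAs, marked by the library in which they reached 2 FPKM, with dashed lines at 2-fold. The 90 members that passed in both libraries center on a median of -0.066, the 46 that passed in shSIK2 only are all above 0 and the 17 that passed in scrambled only all below 0, and both overlap the first group.

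The summed level of the class was 787.5 FPKM with the control hairpin and 809.5 with the SIK2 hairpin, and it took 0.283% and 0.334% of all assigned reads. MALAT1 and NORAD together made up 20.9% and 20.8% of that sum, and the 12 most abundant members 40.6% and 36.7%. Across the 153 members, log2 levels in the 2 libraries correlated with a Pearson r of 0.46, against 0.88 across protein-coding genes. The points share both libraries, and the members span a narrower range with fewer reads.

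MALAT1, a long nuclear RNA of splicing speckles, stood at 88.1 FPKM with the control hairpin and 88.9 with the SIK2 hairpin, a 1.01-fold difference (0.99 to 1.03). NEAT1, the scaffold of paraspeckles and a neighbour of MALAT1 on chromosome 11, stood at 12.5 FPKM and 18.6 FPKM, 1.49-fold higher in the shSIK2 library (1.43 to 1.54). The interval of NEAT1 lay above equal levels and below the 2-fold line. NORAD, on chromosome 20, stood at 76.9 and 79.3 FPKM, 1.03-fold higher, with an interval (0.998 to 1.07) that included no difference. These folds are not scaled to library totals. At equal totals the log2 ratios were 0.15 for MALAT1, 0.71 for NEAT1 and 0.18 for NORAD.

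HCG11, a lincRNA of chromosome 6 named here after its values were seen, had 7.77 FPKM with the control hairpin and 4.40 with the SIK2 hairpin, 1.77-fold lower (1.57 to 1.99). Its transcript was 93.7% identical to NORAD over 5249 aligned bases. NORAD (5339 bases) held 15 Pumilio elements, searched on the transcribed strand only, and HCG11 (5696 bases) held 16, of which 12 stood at the same aligned place. Of the 988 autosomal genes with at least 2 FPKM in either library and a longest transcript of 5000 to 6000 bases, 46.7% held at least 1 element, and the highest number apart from this pair was 6. Among the 153 members 128 held none, NEAT1 held 6 and MALAT1 0. The longest run of identical aligned bases was 129, with gaps in the alignment not counted as breaks. Of the 31-base words of HCG11, 11.6% also occurred in NORAD. Reads could therefore be divided between the 2 RNAs by the counting, and the treatment of such reads is not stated in the sources used. In NORAD 56.1% of all 31-base words also occurred in the longest transcript of a gene elsewhere, and in HCG11 23.8%.

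Other abundant members were lower in the shSIK2 library by less than 2-fold. EBLN3P, derived from an ancient bornavirus insertion, stood at 29.3 FPKM with the control hairpin and 18.0 with the SIK2 hairpin, 1.63-fold lower (1.54 to 1.72). EPB41L4A-AS1, a host of a small nucleolar RNA, was 1.24-fold lower (1.13 to 1.34) and SCAMP1-AS1 1.20-fold lower (1.01 to 1.42). LINC01050 was at 21.8 and 18.4 FPKM, with an interval (0.99 to 1.41) that included no difference. AC006058.1 was 1.48-fold higher (1.34 to 1.63), while the intervals of GS1-124K5.4 (0.79 to 1.45) and AC048341.2 (0.96 to 1.88) included no difference. LINC01293 was the only member of the 12 most abundant with a difference past 2-fold.

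**Figure D2:**
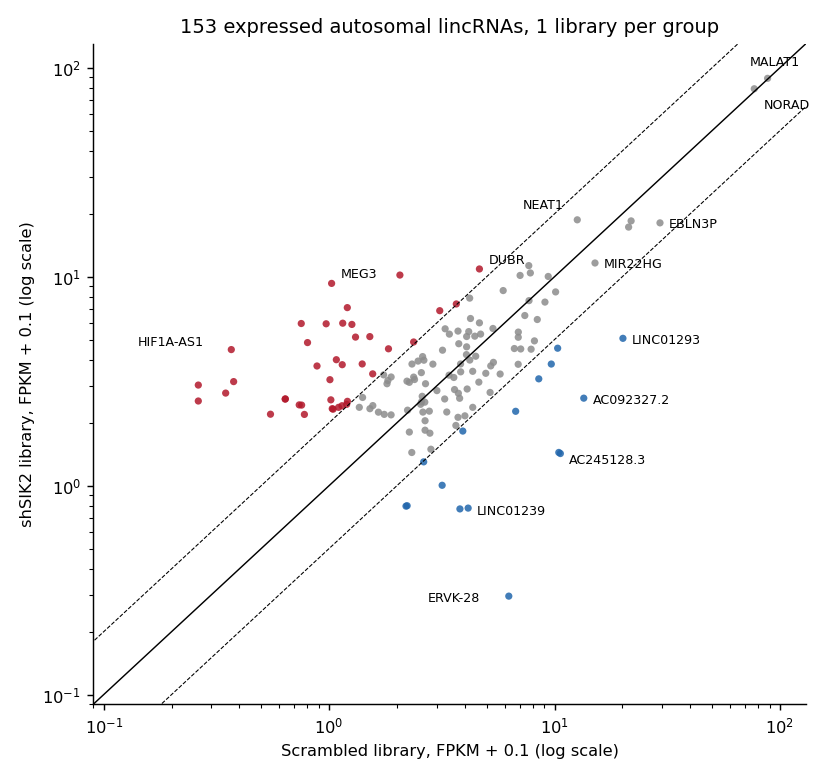
Levels of the 153 lincRNAs in the scrambled (x axis) and shSIK2 (y axis) libraries, as FPKM + 0.1 on log scales, red where at least 2-fold higher in shSIK2 and blue where at least 2-fold lower. MALAT1 and NORAD lie on the line of equal levels at the top right, MEG3 stands above the dashed 2-fold line and LINC01293 below it.

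MEG3 gave the largest difference among well-covered members. This imprinted RNA, made from the maternal copy, lies at chromosome 14, 100779410 to 100861031, plus strand. It stood at 0.93 FPKM with the control hairpin and 9.19 with the SIK2 hairpin, with 369 and 3663 reads, 9.93-fold higher (8.92 to 11.1). Several genes beside it, in the imprinted DLK1-MEG3 domain, were higher too. AL132711.1, a member 99.5 kb before MEG3 on the other strand, had 13 reads and 73 (5.62-fold, 3.09 to 11.05). MEG8, below the minimum level, had 2 reads and 45 (22.5-fold, 5.88 to 191). MEG9, also below the minimum, had 0 reads and 69, at least 23-fold higher when the count of 0 is replaced by its floor of 3 reads per library. BEGAIN, a coding gene 192 kb before MEG3, had 29 and 226 reads (7.79-fold, 5.28 to 11.9). DLK1, the paternally expressed gene of the domain, had 3 reads with the control hairpin and 0 with the SIK2 hairpin, too few for a ratio. WDR25, the nearest coding gene with at least 2 FPKM in either library (called expressed from here on), was 1.31-fold higher (1.05 to 1.64). MEG8 and MEG9 were named after their values were seen.

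The MEG3 promoter window above holds a cyclic AMP response element (TGACGTCA), which begins 50 bases before the annotated start, and a TATAAA match that begins 18 bases before it. This RefSeq start lies 46698 bases inside the GENCODE gene. RefSeq promoter entries matched 43 of the 153 members, of which 11 were at least 2-fold higher and 3 lower, and for each the entry nearest the GENCODE start was searched on both strands for 4 motifs. The element TGACGTCA was in 1 member window, that of MEG3, and in 1.84% of 34796 distinct promoter windows. TATAAA was in 4 member windows and 11.6% of all windows. The ETS core CCGGAAG was in 8 member windows, LINC00662 and NORAD among them, and in 10.2% of all. CTTTGAT, bound by TCF and LEF factors of the Wnt pathway, was in 1 (APTR) and in 2.62%. No motif overlapped another in the windows shown, and a match says only that the letters are there.

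All 6 members on chromosome 14 were past 2-fold on the higher side, with a median log2 ratio of 3.09. Each of the 6 reached 2 FPKM in the shSIK2 library only, so the rule set their side in advance. The 307 protein-coding genes of that chromosome at the same minimum had a median of 0.01, and 8.47% of them were at least 2-fold higher. MEG3 aside, these members had few reads. HIF1A-AS1 had 3 and 49 reads (16.3-fold, 5.27 to 81.9), AC004816.1 had 2 and 30, LINC02298 had 5 and 54, and AL161752.1 had 3 and 27. HIF1A-AS1 overlaps an exon of HIF1A on the other strand. HIF1A, the oxygen-regulated transcription factor subunit, had 9559 and 19029 reads (1.99-fold, 1.94 to 2.04). Whether the libraries kept strand is not stated, so reads of such an antisense pair cannot be told apart. These 4 were named after their values were seen.

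Next after MEG3 came lincRNAs beside coding genes that were higher too. LINC02593 (chromosome 1, 916865 to 921016, minus strand) had 62 reads with the control hairpin and 417 with the SIK2 hairpin, 6.73-fold higher (5.14 to 8.93). AL645608.2 and AL645608.6, within 2 kb of it, had 51 and 204 reads (4.0-fold, 2.93 to 5.55) and 7 and 35 reads (5.0-fold, 2.19 to 13.3). LINC02593, AL645608.2 and AL645608.6 reached 2 FPKM in the shSIK2 library only, so the rule set their side in advance. SAMD11, the coding gene that starts 2.91 kb away, was 5.37-fold higher (4.54 to 6.39). KLHL17 was 3.09-fold higher (2.68 to 3.57). NOC2L, which lies between SAMD11 and KLHL17, was 1.11-fold lower in unscaled reads (1.04 to 1.17). The log2 ratio of NOC2L was -0.14, and scaling to equal library totals adds up to 0.14. ISG15, an interferon-induced gene 80.1 kb from LINC02593, was 2.96-fold lower (2.70 to 3.25). Higher and lower genes thus lay within 100 kb of each other at this locus.

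AC009041.2 (chromosome 16, 975761 to 981596, minus strand) is transcribed away from SOX8, a transcription factor of the SOX family, with 212 bases between the starts. It had 74 reads with the control hairpin and 470 with the SIK2 hairpin, 6.35-fold higher (4.96 to 8.23). SOX8 had 150 and 834 reads, 5.56-fold higher (4.67 to 6.66). Both genes reached 2 FPKM in the shSIK2 library only, so the minimum level set their side in advance. An exon of AC009041.2 also overlaps LMF1, which had 122 and 261 reads.

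The let-7 hosts among the members had more reads in the shSIK2 library. MIRLET7BHG, on chromosome 22, carries let-7a-3 and let-7b in exons. It stood at 1.30 FPKM with the control hairpin and 3.72 with the SIK2 hairpin, 2.86-fold higher (2.33 to 3.52). MIRLET7BHG reached 2 FPKM in the shSIK2 library only, so the rule set its side in advance. AC048341.1, on chromosome 12, carries let-7i in an intron, and stood at 3.0 and 6.78 FPKM, 2.26-fold higher (2.02 to 2.53). AL158152.2, on chromosome 9, spans let-7a-1, let-7f-1 and let-7d, and had only 9 and 15 reads (1.67-fold, 0.68 to 4.32). Its interval included no difference.

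RefSeq places 14 hairpins with the let-7 seed in 10 host genes, of which 3 are members. Of the 7 other hosts 1 had more reads in the shSIK2 library and 6 had fewer, of which MIR100HG, MIR4500HG and MIR99AHG differed by 2-fold or more in reads. MIR4500HG had 40 and 17 reads (2.35-fold, 1.30 to 4.43). MIR99AHG had only 12 and 1, and its log2 ratio of FPKM + 0.1 was -0.62. MIR4458HG, counted among the 6, had 67 and 66 reads, with an interval that included no difference. MIR100HG, which GENCODE types as a processed transcript, had 2080 and 678 reads, 3.07-fold lower (2.81 to 3.35). WDR82, the host of let-7g, was 1.28-fold lower (1.22 to 1.33), and HUWE1, which carries 2 hairpins, was 1.56-fold lower (1.51 to 1.62). SPACA6, the host of let-7e, was the host with more reads, at 38 and 92, 2.42-fold higher (1.64 to 3.63). Mature microRNAs were not measured, and a host's level need not follow that of its microRNA. These hosts were named after their values were seen.

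Further microRNA hosts differed less. MIR22HG stood at 15.02 and 11.5 FPKM, 1.30-fold lower in the shSIK2 library (1.17 to 1.45). LINC00472, which spans the hairpins of miR-30a and miR-30c, was 1.45-fold higher (1.15 to 1.83), while OGFRL1, the coding gene beside it, was lower, with a log2 ratio of -1.08. The RefSeq microRNAs searched gave 13 hairpins in 6 members, and MEG3 was the sixth, with miR-770 and miR-2392. This count leaves out MIR612 and MIR1204, which GENCODE places over exons of the members NEAT1 and PVT1.

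Higher members with at least 100 reads were also found at other loci. DUBR, a lincRNA first described in muscle, stood at 4.54 FPKM with the control hairpin and 10.8 with the SIK2 hairpin, 2.38-fold higher (2.08 to 2.71). LINC00968 on chromosome 8 had 69 and 247 reads (3.58-fold, 2.73 to 4.75). LINC01933 and LINC00847, both on chromosome 5, were 2.69-fold (1.99 to 3.70) and 2.55-fold higher (1.93 to 3.39). AC015813.1 was 2.40-fold (1.87 to 3.09) and FLVCR1-DT 2.36-fold higher (1.68 to 3.35). LINC00342, named after its values were seen, had 45 and 102 reads (2.27-fold, 1.58 to 3.29), and 45.5% of its 31-base words occur elsewhere. All of these but DUBR reached 2 FPKM in the shSIK2 library only, so the rule set their side in advance. None of the nearest expressed coding genes of these 7 was higher, with log2 ratios from -0.64 to -0.03.

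**Figure D3:**
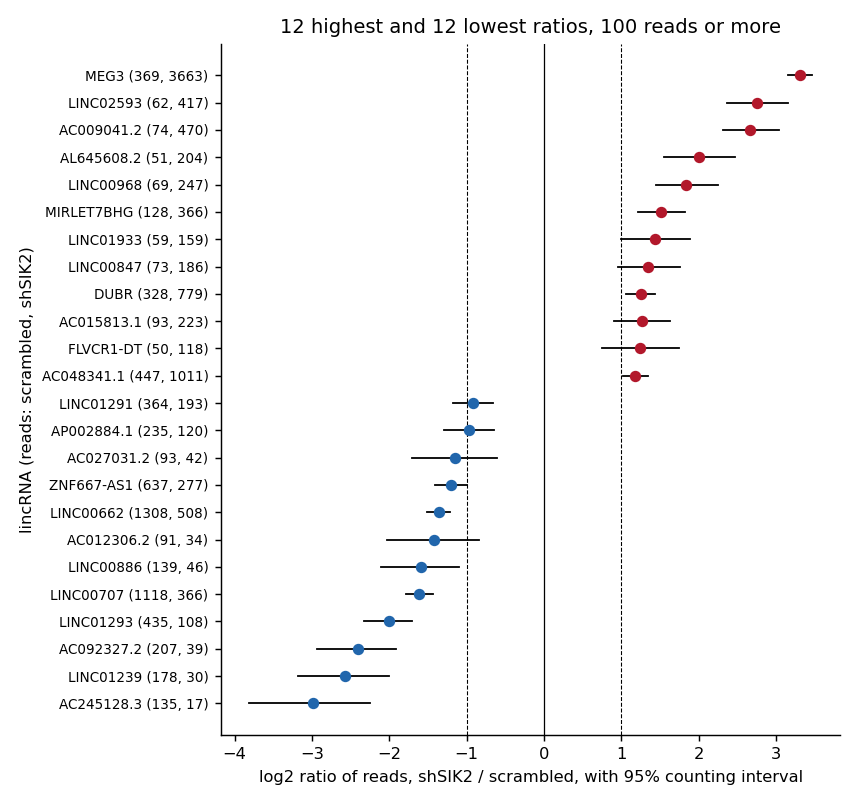
Log2 ratio of recovered reads, shSIK2 over scrambled, with 95% counting intervals, for the 12 highest and 12 lowest lincRNAs with at least 100 reads; the reads of the scrambled and the shSIK2 library stand beside each name. MEG3 is highest at 369 and 3663 reads, and AC245128.3 lowest at 135 and 17.

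On the lower side, AC245128.3 (chromosome 19, 54890673 to 54891420) stood at 10.5 FPKM with the control hairpin and 1.32 with the SIK2 hairpin, 7.94-fold lower (4.78 to 14.03). It begins 201 bases after the end of FCAR, a receptor for immunoglobulin A, on the same strand, and FCAR was 6.98-fold lower (5.02 to 9.93). Of the 12 members on chromosome 19, 5 were at least 2-fold lower and 1 higher, and 5.32% of its coding genes were at least 2-fold lower. Some of the 5, AC245128.3 among them, reached 2 FPKM in the scrambled library only, so the rule set their side in advance. LINC00662, also on chromosome 19, had 1308 and 508 reads, 2.57-fold lower (2.32 to 2.86). ZNF667-AS1, which overlaps the zinc finger gene ZNF667, was 2.30-fold lower (1.99 to 2.66), and ZNF667 had 565 and 301 reads. ERVK-28, named after its values were seen, is an endogenous retrovirus of the same chromosome and had 63 and 2 reads (31.5-fold, 8.37 to 266). Of its 31-base words 39.1% occur elsewhere, so its reads are uncertain.

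LINC01293 (chromosome 2, 74940258 to 74942670) stood at 20.02 FPKM with the control hairpin and 4.97 with the SIK2 hairpin, 4.03-fold lower (3.26 to 5.02). LINC01291, 1.84 kb before it on the same strand, was 1.89-fold lower (1.58 to 2.26). POLE4, a subunit of DNA polymerase epsilon and the nearest coding gene to both, was 1.45-fold lower (1.23 to 1.73). HK2, a hexokinase 46.9 kb away, was 1.51-fold lower (1.43 to 1.60). All 4 of these genes were on the lower side, LINC01293 furthest.

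LINC01239 (chromosome 9, 22646200 to 22824213) had 178 and 30 reads, 5.93-fold lower (4.01 to 9.05). It reached 2 FPKM in the scrambled library only, so the rule set its side in advance. The nearest expressed coding gene was CDKN2B, a cell cycle inhibitor 637 kb away, which was 2.80-fold lower (2.61 to 3.01). AL157937.1, the other member of this stretch, had 27 and 14 reads, with an interval (0.98 to 3.98) that included no difference. AC092327.2, on chromosome 16, had 207 and 39 reads, 5.31-fold lower (3.76 to 7.68). LINC00917, which overlaps an exon of it on the other strand, had 61 and 25 reads, 2.44-fold lower (1.51 to 4.06). Strandedness is not stated, so reads of this overlapping pair cannot be told apart. FOXF1, a transcription factor gene 161 kb away, was 2.21-fold higher (1.80 to 2.73).

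LINC00707 on chromosome 10 had 1118 and 366 reads, 3.05-fold lower (2.71 to 3.45), and its nearest expressed coding gene, PFKFB3, a regulator of glycolysis 525 kb away, was higher, with 1609 and 3304 reads. LINC00886 was 3.02-fold lower (2.15 to 4.31), and TIPARP, 40.6 kb away, had 5218 and 2227 reads. AC012306.2 was 2.68-fold lower (1.79 to 4.09) beside AMMECR1L, with 2437 and 798 reads, but 83.2% of its 31-base words occur in other genes, so its reads are uncertain. AC027031.2 was 2.21-fold lower (1.52 to 3.27) and AP002884.1 1.96-fold lower (1.57 to 2.46). LINC00886, AC027031.2 and AP002884.1 reached 2 FPKM in the scrambled library only, so the rule set their side in advance.

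**Figure D4:**
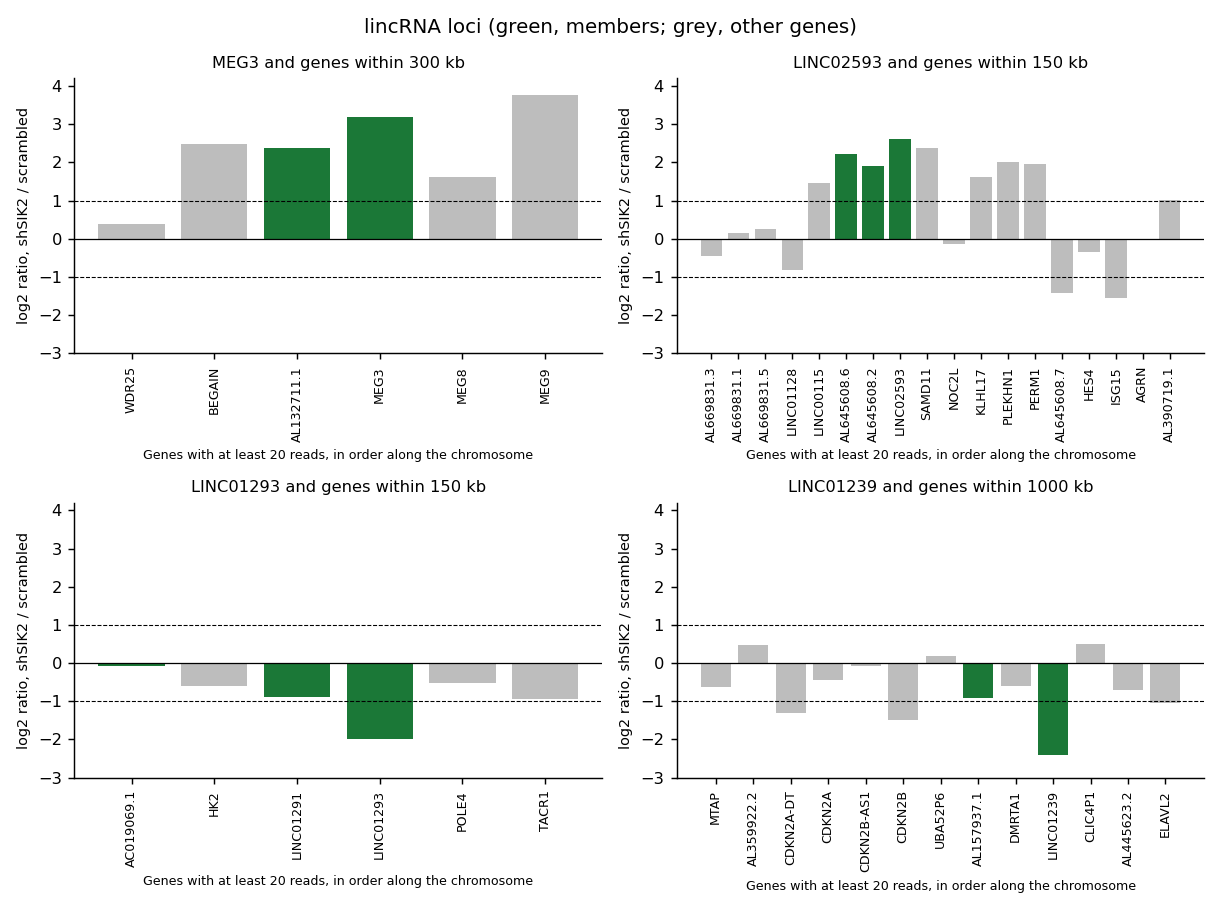
Log2 ratio of shSIK2 over scrambled (FPKM + 0.1, y axis) for every gene with at least 20 reads around 4 lincRNAs, in order along the chromosome, with members in green, other genes in grey and dashed lines at 2-fold. The genes around MEG3 are all on the higher side, those around LINC01293 on the lower side, and those around LINC02593 on both; MEG9 had 0 reads in the scrambled library, so its bar depends on the 0.1 added.

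Neighbouring coding genes were compared for all members. The nearest expressed coding gene lay 7.95 kb away at the median. Across the 153 pairs the log2 ratios of lincRNA and neighbour correlated with a Pearson r of 0.33 and a Spearman rho of 0.30. Within 100 kb the values were 0.43 and 0.40 over 121 members, which share 115 neighbours. Without the 5 pairs of SAMD11, SOX8 and FCAR they were 0.29 and 0.32. Over the 32 members beyond 100 kb Pearson r was -0.01. The pairs share both libraries, and log2 ratios followed GC content across the members (Spearman rho 0.31) and across coding genes (0.33), so these values are descriptions.

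Pairs past 2-fold together were counted within 100 kb. Of the 29 members within 100 kb of their neighbour that were at least 2-fold higher, 6 had a neighbour at least 2-fold higher, from 4 distinct coding genes (SAMD11, SOX8, JAG2 and SCNN1D). Of the 9 that were at least 2-fold lower, 4 had a neighbour at least 2-fold lower (FCAR, AMMECR1L, AKNA and TIPARP). Among the 83 members in between, 4 had a neighbour at least 2-fold higher and 8 had one at least 2-fold lower. The shares over all expressed coding genes were 6.95% higher and 6.47% lower. Members are not replicates, and these counts were not tested.

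Divergent lincRNAs, whose start lies within 1 kb of the neighbour's on the opposite strand, numbered 39. Their median log2 ratio was 0.46, and that of their coding partners -0.26. In 28 of the 39 pairs the lincRNA had the higher ratio, and for the other 114 members this held in 68. Of the 11 divergent lincRNAs at least 2-fold higher, 10 had a partner within 2-fold, among them HIF1A at 1.99-fold higher. Over all 39 pairs, 1 partner was at least 2-fold higher and 3 lower, so most partners lay within 2-fold in any case. Each of the 11 lincRNAs reached 2 FPKM in the shSIK2 library only, so the rule set their side in advance. AP001527.2, beside YAP1, a coactivator of the Hippo pathway, had 3 and 33 reads, and YAP1 had 3069 and 2630. AC008608.2, beside the mitochondrial channel gene VDAC1, had 14 and 72 reads, and VDAC1 had 5625 and 6609. AC061992.1, beside SOCS3, an inhibitor of cytokine signalling, had 11 and 51 reads, and SOCS3 had 433 and 480. All 3 were named after their values were seen.

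These divergent members had 136 reads at the median. Members with a single block of exonic sequence, 51 in number, had a median log2 ratio of 0.42, and the 102 with several blocks 0.05. The counts did not follow the medians. Of the 51, 10 were at least 2-fold higher and 3 lower, and of the 102, 29 and 13. Median reads in both libraries together were 125 for a single block and 168.5 for several.

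**Figure D5:**
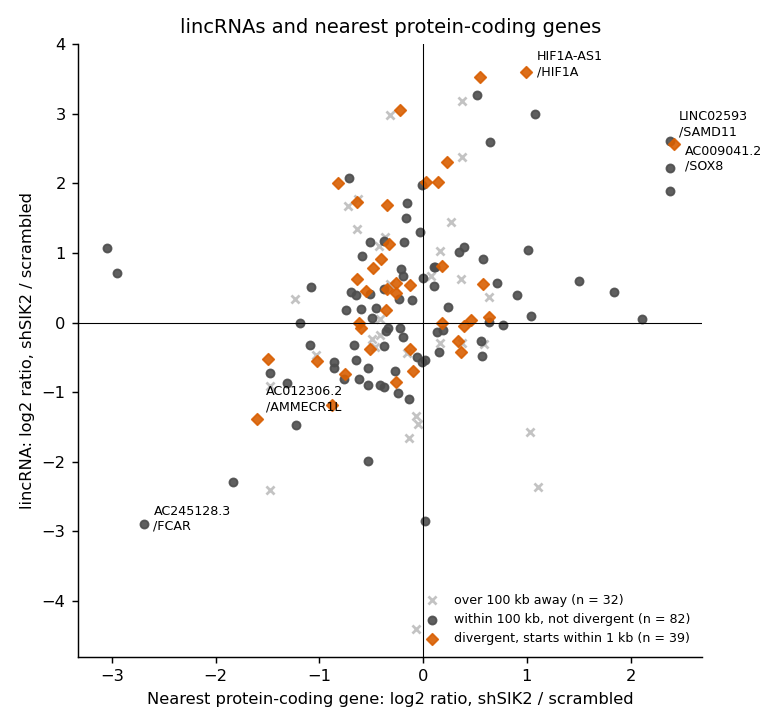
Log2 ratio of shSIK2 over scrambled for each lincRNA (y axis) and its nearest expressed protein-coding gene (x axis), with the 39 divergent pairs as orange diamonds and the 32 pairs over 100 kb apart as crosses. The SAMD11 and SOX8 pairs lie at the upper right and the FCAR pair at the lower left, and most divergent lincRNAs lie above their partners.

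Lists of lincRNAs with reported roles were thinly covered. Of 91 listed symbols 8 were members, 45 were lincRNAs below the minimum, 2 were not autosomal, 26 were of other gene types and 10 matched no symbol. The list drawn up as nuclear scaffolds had 4 members, MALAT1, NEAT1, NORAD and MEG3, of which MEG3 was at least 2-fold higher. The list name is no result for NORAD, since the place of these RNAs in the cell was not measured. The microRNA host list had MIRLET7BHG and MIR22HG, and the p53-linked list had NEAT1 and MEG3, each with 1 at least 2-fold higher. The tumour list had MALAT1, NEAT1 and PVT1. PVT1, a lincRNA of chromosome 8, stood at 3.97 and 4.14 FPKM, with an interval (0.90 to 1.20) that included no difference. None of the members of the tumour, interferon, cyclic AMP or hypoxia lists was past 2-fold. This does not hold for listed genes outside the set, some of which were past 2-fold on either side. MIR210HG (hypoxia list) had 1 and 26 reads, MIR155HG (interferon list) 36 and 9, and TINCR (tumour list) 71 and 257. These genes were named after their values were seen. The 7 lists share members, so their counts are not independent.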

How the data were processed

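RNA sequencing of 1 scrambled and 1 shSIK2 library was used, grouped by sample title. Trizol was used to extract total RNA, per the labels' protocols. The submitters' processing notes name HISAT2 2.0.5 and, as build, hg18. Not given in the sources used here are the counter, the annotation, poly(A) selection and strandedness. The authors deposited FPKM values for 58735 genes, per the file headers. All identifiers matched GENCODE release 29 on GRCh38, which supplied names, types and coordinates. The files do not settle to which build reads were aligned.

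FPKM times exon length gave whole multiples of 1 step, 58.3, for 100% of values above 0 in both tables (tolerance 0.001). These were taken as reads, 18019225 in all for the scrambled and 16347399 for the shSIK2 library. The step was the same in both tables, so the values are scaled for gene length and not to each library's own total. Log2 ratios are of FPKM plus a pseudocount of 0.1. Folds are ratios of reads with exact (Clopper-Pearson, conditional on the sum) 95% intervals. Since reads carried no molecular identifiers, intervals and floors cover counting error only. A test or leave-out check was not possible at 1 library per group.

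Named members were the 12 most abundant, the 12 highest and 12 lowest ratios among members with at least 100 reads, and every listed member, with the nearest expressed protein-coding genes. Others were chosen after their values were seen. The members and lists were chosen with earlier results of these data known. Read recovery, intervals, trend removal and neighbour search were tested on simulated data. Alternatives were other scalings, pseudocounts, minimum levels and overlap filters. The tools were biotite 1.4.0, matplotlib 3.10.9, scipy 1.17.1, pandas 2.3.3 and numpy 2.4.6, run in Python 3.11.15.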

Additional observations from a re-analysis of the deposited data

How the results depend on the processing

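The numbers of lincRNAs at least 2-fold higher and lower, 39 and 16, moved with the minimum level. A minimum of 1 FPKM gave 94 and 34 of 317, a minimum of 5 FPKM gave 12 and 9 of 60, and no minimum gave 511 and 252 of 1979. With a mean of both tables of at least 2 FPKM, 22 of 123 were higher and 12 lower. In 2 sets chosen after seeing the data, the median log2 ratio of 0.20 changed sign: it was -0.043 for members with at least 100 reads (13 higher, 10 lower) and -0.066 for members at 2 FPKM in both tables (4 higher, 6 lower). Under the other 10 settings it lay between 0.013 and 0.38, among them equal totals (0.33), a pseudocount of 1 FPKM (0.15, with 26 higher and 12 lower) and removal of the trend with GC content and exon length (0.13). At equal totals 39 of the higher and 14 of the lower members stayed past 2-fold, and with the trend removed 34 and 15. The summed level without the 41 members whose exons overlap another gene was 507.8 FPKM (scrambled) and 516.1 FPKM (shSIK2). The correlation with the nearest coding gene, 0.33, was 0.27 by start site and 0.32 with the trend removed. No paired analysis was possible because each group holds 1 library. Depth is a limit for the 61 members with under 100 reads.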
